A study of Mus musculus with 12 samples.

Results

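The 10 genes described here encode secretory proteins of the seminal vesicle: Svs1, Svs2, Svs3a, Svs3b, Svs4, Svs5, Svs6, Pate4, Sva and Ceacam10. They were taken by gene name from the deposited expression tables, in which all 10 were listed for both generations, out of 28075 genes listed in either table and 17039 listed in both. In F1 prostates after chlordecone exposure, Svs2, Svs5 and Pate4 were higher in all 3 libraries than in both controls, by 24.2, 4.28 and 7.07 times between group means, while the other 7 genes were above both controls in 1 of these libraries and below them in the others. In F3 prostates none of the 10 exceeded 43.7 CPM (counts per library scaled to a common total) in any library, and all 10 averaged lower after chlordecone. No such difference in either generation passed the threshold of an adjusted p under 0.05 in edgeR's quasi-likelihood test over all genes.

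Chlordecone, also named kepone, is an organochlorine insecticide. Pregnant F0 mice were dosed at 100 µg/kg/day over E6.5-E15.5 of gestation, and prostates of males were sequenced as polyadenylated RNA in F1, the directly exposed offspring, and in F3, bred from them without further dosing stated in the labels. The groups were F1 chlordecone (n = 3 libraries), F1 control (n = 2 analysed here), F3 chlordecone (n = 3) and F3 control (n = 3), F1 control 3 being not analysed here. Strain, age, dosing vehicle and genotype are not given in the labels used here, nor whether the samples came from separate animals, litters or dosed females, so every p-value measures only the spread between these samples. Libraries held 17858215 to 28061760 counts in F1 chlordecone, 17228539 and 18740109 in F1 controls, 86552953 to 112491139 in F3 chlordecone and 71672418 to 114762135 in F3 controls. The F1 controls resembled each other far more than any other F1 pair did, with a chi-square per gene of 16.6 against 266 to 599. They differed by more than sampling noise, which cannot show whether they came from separate animals. The labels name them as separate samples and they were counted so. Levels are in CPM throughout, scaled between the libraries of one generation by TMM, the trimmed mean of M-values. The tables of the generations were made separately, so levels set across them are descriptions.

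The seminal vesicle is a male accessory gland beside the prostate that supplies much of the fluid of the ejaculate, and its secretion depends on androgens. In mice Svs1, Svs2 and Svs3 proteins are cross-linked by transglutaminase 4 from the anterior prostate lobe into the copulatory plug. Svs2 to Svs6 belong to the rapidly evolving family of semenogelin-related genes, and the epithelium of the prostate lobes themselves is not known as their main source. In a bulk sample, fewer cells of a type and less RNA per cell cannot be told apart.

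The 6 semenogelin-related genes lie side by side on chromosome 2 (GRCm38, GENCODE M21), within chr2:164235929-164334396, a stretch of 98.5 kb that holds no other annotated gene. Their order along the chromosome is Svs2, Svs3b and Svs4 on the minus strand, then Svs3a, Svs6 and Svs5 on the plus strand. The other members are scattered: Sva at chr6:42038394-42042851 and Svs1 at chr6:48986861-48991722, Ceacam10 at chr7:24777206-24784657 and Pate4 at chr9:35607093-35611941. Svs2 and Svs5, higher in all F1 chlordecone libraries, are the outermost genes of the chromosome 2 stretch, and the other 4 lie between them. Svs1 overlaps 4930563H07Rik and Pate4 overlaps Pate2, each on the opposite strand, and whether counting used strand is not given in the sources used here. Pate2 had 28, 1 and 24 counts in F1 chlordecone libraries and 0 in both F1 controls, against at least 209071 counts for Pate4 in any F1 library.

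Some genes of the stretch share upstream sequence, shown here for Svs5 with its neighbour Svs6, and for Svs3a with Svs3b, between which Svs4 lies. These pairs were chosen for their F1 chlordecone libraries. There Svs5 and Svs6 differed in library order, while Svs3a and Svs3b had the same order with unequal changes. Each line gives the 250 bases before the RefSeq start (GRCm38.p6), and capitals mark bases that differ from the partner or have no partner in a global alignment.
Svs5, chr2:164332515-164332764, plus strand: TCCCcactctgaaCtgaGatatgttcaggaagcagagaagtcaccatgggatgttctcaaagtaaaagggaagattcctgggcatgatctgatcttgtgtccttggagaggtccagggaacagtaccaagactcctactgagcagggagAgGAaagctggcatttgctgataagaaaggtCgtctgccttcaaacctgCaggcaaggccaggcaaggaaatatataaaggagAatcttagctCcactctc
Svs6, chr2:164316501-164316750, plus strand: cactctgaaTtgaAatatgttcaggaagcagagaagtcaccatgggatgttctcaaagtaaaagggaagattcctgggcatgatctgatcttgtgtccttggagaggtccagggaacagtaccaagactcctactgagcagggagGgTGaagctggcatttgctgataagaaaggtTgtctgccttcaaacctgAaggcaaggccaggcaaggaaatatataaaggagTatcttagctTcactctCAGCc
Svs3a, chr2:164289017-164289266, plus strand: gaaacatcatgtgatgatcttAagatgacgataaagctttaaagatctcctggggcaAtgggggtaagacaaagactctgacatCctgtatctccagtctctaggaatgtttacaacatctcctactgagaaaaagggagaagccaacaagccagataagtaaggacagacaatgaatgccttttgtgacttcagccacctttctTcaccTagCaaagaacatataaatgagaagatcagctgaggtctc
Svs3b, chr2:164256644-164256893, minus strand: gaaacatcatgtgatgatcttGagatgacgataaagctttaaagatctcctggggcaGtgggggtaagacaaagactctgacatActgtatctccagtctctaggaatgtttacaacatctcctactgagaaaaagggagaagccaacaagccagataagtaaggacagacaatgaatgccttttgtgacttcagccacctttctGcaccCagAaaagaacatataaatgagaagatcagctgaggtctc
The Svs5 and Svs6 windows matched at 237 positions, an identity of 93.3%, and those of Svs3a and Svs3b at 244, an identity of 97.6%. The transcripts diverged more: those of Svs5 and Svs6 were 57.4% identical and shared no 50-base word. Svs3a and Svs3b transcripts were 88.9% identical, and 41.2% of the 50-base words of Svs3a also occurred in Svs3b. Reads from the shared stretches could be split between Svs3a and Svs3b or dropped, and the separate values of that pair are uncertain.

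The hexamer AGAACA, a half-site of steroid hormone response elements, occurred on either strand in the RefSeq window (250 bases before to 50 after the start) of 7 of the 9 members with an entry, against 19.0% of 32851 windows of all genes. The 2 without it were Svs2 and Svs4, and Pate4 had no entry. The full inverted repeat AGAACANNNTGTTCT occurred in 0 of 9, and in 0.00913% of all windows. In Svs5 and Svs6 the half-site was read on the minus strand, at positions -199 and -203 from the start, within the shared sequence. TATAAA, a motif added after the data were seen, occurred on either strand in 6 of 9 windows, against 13.6% of all windows. It stood at position -28 in Svs3a, Svs3b, Svs4 and Svs5 and at -32 in Svs6. In Svs2 it stood only at -236 and -205, farther from the start, and Svs4 had further matches at -182, -152 and -61. Members were counted by gene, with a match in any window (Svs3a and Ceacam10 had 2), while the share of all was counted by window. Both motif counts include the similar pairs Svs3a with Svs3b and Svs5 with Svs6, so the members are not independent sequences. These are matches of letters, not measured binding.

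In F1 the members took 18.7%, 44.9% and 40.9% of all counts in chlordecone 1, 2 and 3, against 13.5% and 14.1% in control 1 and 2. Svs2, Svs4, Svs5 and Pate4 were among the 5 most abundant genes of chlordecone 3, where Svs2 alone took 15.455% of counts. Svs4 alone took 29.8% in chlordecone 2.

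Svs2, the main structural protein of the plug and a coat of sperm in the uterus, had 34722, 23806 and 199639 CPM in chlordecone 1, 2 and 3, against 3930 and 3196 CPM in the controls. Every chlordecone library was above both controls, and chlordecone 3 was far above the rest. The mean was 86055 ± 98518 CPM in chlordecone libraries and 3563 ± 519 CPM in controls (SD, n = 3 and 2), a log2 fold change of 4.59 (SE 1.10; edgeR quasi-likelihood unadjusted p = 0.00313, adjusted p = 0.213).

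Svs5, a small protein of the same family, had 51768, 51188 and 150116 CPM in chlordecone 1, 2 and 3, against 19686 and 19708 CPM in the controls. The groups did not overlap, chlordecone 1 and 2 were nearly equal, and chlordecone 3 was again the highest. The mean was 84358 ± 56950 CPM in chlordecone libraries and 19697 ± 15.2 CPM in controls (SD, n = 3 and 2), a log2 fold change of 2.10 (SE 0.67; edgeR adjusted p = 0.305). Pate4, also called Svs7, is a small Ly6-like protein that binds sperm, and it had 40762, 52733 and 138565 CPM in chlordecone 1, 2 and 3, against 10955 and 10927 CPM in the controls. The groups did not overlap here either. The mean was 77353 ± 53348 CPM in chlordecone libraries and 10941 ± 19.4 CPM in controls (SD, n = 3 and 2), a log2 fold change of 2.82 (SE 0.70; edgeR adjusted p = 0.221).

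Svs4, the most abundant member per length in both F1 controls, had 57418, 290002 and 40393 CPM in chlordecone 1, 2 and 3, against 77826 and 81025 CPM in the controls. Chlordecone 2 lay above both controls and the other two chlordecone libraries lay below them. Svs6, a small member of the same family, had 1864, 10434 and 93.0 CPM in chlordecone 1, 2 and 3, against 5137 and 5366 CPM in the controls. It took the same order of libraries, and chlordecone 3 was 56.5 times below the control mean.

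Svs3a, a transglutaminase substrate of the plug, had 361, 1528 and 3.59 CPM in chlordecone 1, 2 and 3, against 638 and 602 CPM in the controls. Svs3b, its near copy, had 81.2, 304 and 7.73 CPM in chlordecone 1, 2 and 3, against 198 and 166 CPM in the controls. Svs1, a plug protein related to copper amine oxidases, had 130, 517 and 0.783 CPM in chlordecone 1, 2 and 3, against 275 and 239 CPM in the controls. In each of the 3, chlordecone 2 was highest and chlordecone 3 lowest, with the controls between chlordecone 1 and 2. Svs3a had 4.45, 5.03 and 0.464 counts per count of Svs3b in chlordecone 1, 2 and 3, against 3.23 and 3.64 in the controls, so the order of the pair turned in chlordecone 3, where Svs3a was 173 times and Svs3b 23.5 times below its control mean.

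Sva, an autoantigen that coats sperm and suppresses their motility, had 1177, 5689 and 4.10 CPM in chlordecone 1, 2 and 3, against 3197 and 2774 CPM in the controls. Ceacam10, a secreted immunoglobulin-domain protein of seminal fluid, had 146, 619 and 10.3 CPM in chlordecone 1, 2 and 3, against 289 and 253 CPM in the controls. Both followed the same order, and chlordecone 3 was 729 times below the control mean for Sva and 26.3 times for Ceacam10. The overlapping 4930563H07Rik had 1108, 2005 and 11 counts in chlordecone 1, 2 and 3, against 2497 and 1909 in the controls, beside 3274, 9486 and 17 counts of Svs1 in chlordecone libraries.

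**Figure D1:**
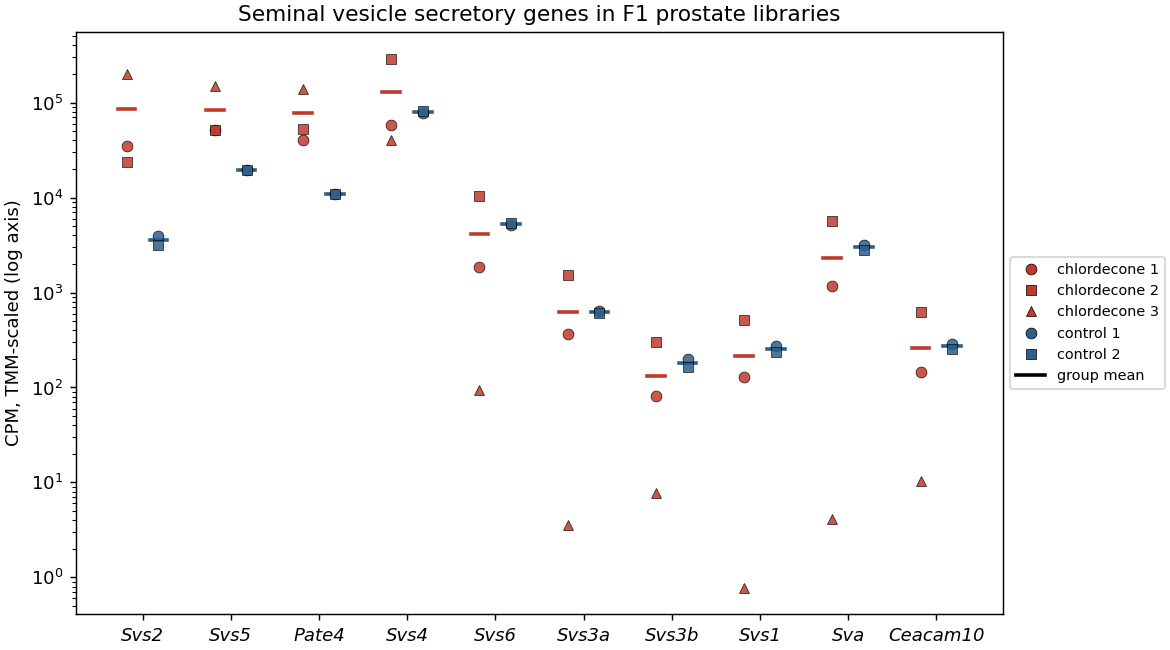
Level of each gene in each F1 library, in TMM-scaled CPM on a log axis, with chlordecone libraries (red) left of controls (blue), 1 symbol shape per sample number and a bar at the group mean. Svs2, Svs5 and Pate4 are above both controls in all 3 chlordecone libraries, while the other 7 are above them in chlordecone 2 and below them in chlordecone 1 and 3.

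All 7 genes other than Svs2, Svs5 and Pate4 thus had 1 order in F1, chlordecone 2 above both controls, then chlordecone 1, then chlordecone 3. In chlordecone 2 all 10 members were above both controls, against 39.3% of all genes tested. In chlordecone 1 and in chlordecone 3, 3 members were above both controls and 7 below, against 40.6% above and 39.8% below in chlordecone 1 and 39.2% and 39% in chlordecone 3 among all genes. The fitted log2 fold changes of the 7 lay between -0.47 (Svs3b) and 0.70 (Svs4), with standard errors of 0.88 to 1.64 and edgeR adjusted p of 0.816 or more. The median over the 10 was -0.02, beside 0.02 over 17804 genes.

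Of the 10 members, 0 were called in F1 by edgeR's quasi-likelihood test, which called 0.0281% of genes. At an unadjusted p under 0.05 edgeR had 3 members, all higher, against 11.5% of genes in either direction and 7.93% higher. DESeq2 called 3, the same Svs2, Svs5 and Pate4, against 3.89% of genes (2.99% higher), with adjusted p of 0.010, 0.00111 and 2.55e-06. In the authors' deposited table the adjusted p was 0.0110 for Svs2, 0.000932 for Svs5 and 1.55e-06 for Pate4, with log2 fold changes of 4.59, 2.10 and 2.82, and these 3 were its calls among the members, against 3.37% of genes. The groups did not overlap for 3 of 10 members, all higher, against 16.2% of genes higher and 15.1% lower. Without chlordecone 2, edgeR called 4 members, Svs2, Svs5 and Pate4 as higher and Svs4 as lower (log2 -0.71, adjusted p = 0.0366), where it called 15% of all genes. Without chlordecone 3, the log2 fold changes were 3.04 for Svs2, 1.39 for Svs5 and 2.10 for Pate4.

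**Figure D2:**
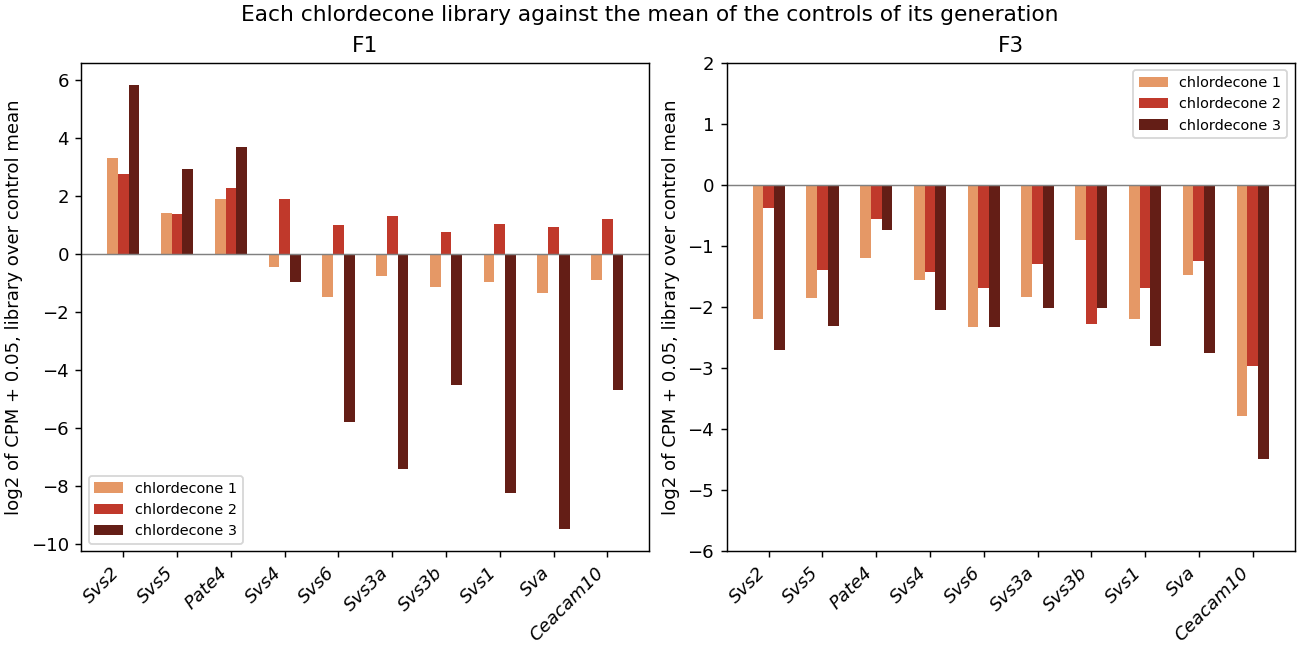
Log2 ratio of each chlordecone library to the mean of the controls of its generation, with 0.05 CPM added, for F1 (left) and F3 (right). In F1 the bars of Svs2, Svs5 and Pate4 all point up and those of the other 7 genes point up in chlordecone 2 alone, and in F3 every bar points down.

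The make-up of the secretory counts differed in the same way. Svs2, Svs5 and Pate4 together made up 67.5%, 29.2% and 92.3% of the counts of the 10 genes in chlordecone 1, 2 and 3, against 28.3% and 27.2% in the controls. Chlordecone 2 was thus close to the controls in that share, although the members took more of its counts than of any other library. Svs5 had 127, 97.1 and 108 counts per 100 of Pate4 in chlordecone 1, 2 and 3, against 180 in each control. Svs2 had 60.5, 8.21 and 494 counts per 100 of Svs4 in chlordecone 1, 2 and 3, against 5.05 and 3.94 in the controls.

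**Figure D3:**
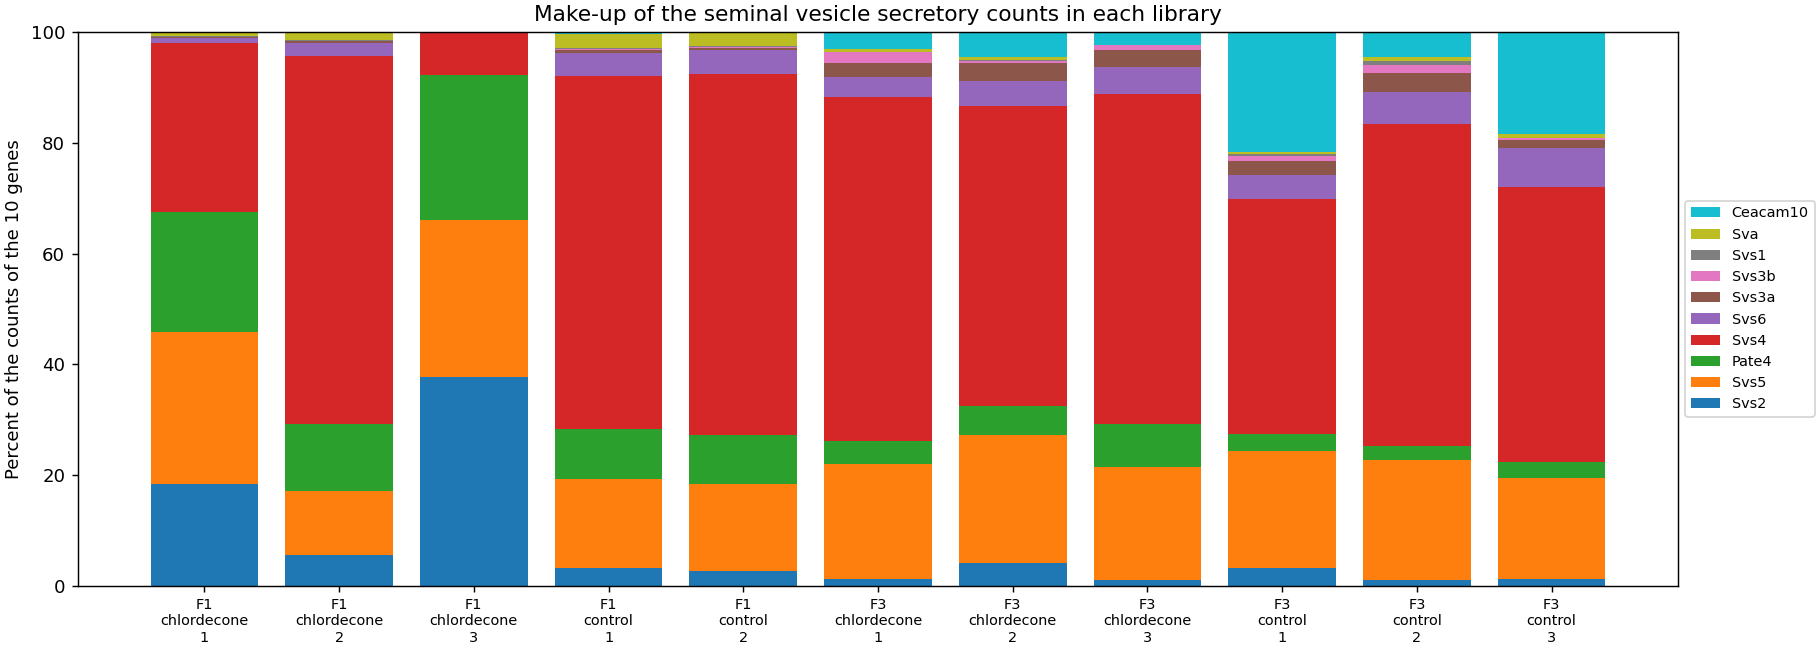
Percent of the counts of the 10 genes taken by each gene in each library of both generations, stacked from Svs2 at the bottom to Ceacam10 at the top. Svs2, Svs5 and Pate4 fill 92.3% of F1 chlordecone 3 and 27.2% to 28.3% of the F1 controls, and Svs4 is the largest block in every F3 library.

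In counts per kilobase of annotated exon, divided by the raw library total with no TMM factor and so not on the CPM scale used above, the F1 controls had the order Svs4, Svs5, Pate4, Svs6, Sva, Svs2, Svs3a, Ceacam10, Svs3b and Svs1, with 117940 and 126211 for Svs4 and 110 and 98.0 for Svs1. Of the neighbours in that order, Pate4 (11320 and 11607) and Svs6 (10637 and 11420) overlapped between the controls. In chlordecone 3 the order was Svs5 (179895), Pate4 (100065), Svs2 (77859) and Svs4 (42777), followed by Svs6 at 135 and the other 5 at 5.34 or less. Svs5 was also first in chlordecone 1, at 79730 beside 78148 for Svs4, while chlordecone 2 had Svs4 first at 407408.

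In F3 the members together had 1549, 1495 and 1086 counts in chlordecone 1, 2 and 3, against 5801, 5306 and 1575 in control 1, 2 and 3. As a share of the library this was 0.00138%, 0.00173% and 0.00106% in chlordecone libraries, against 0.00583%, 0.00740% and 0.00137% in controls. Control 3 lay among the chlordecone libraries in this share, and control 1 and 2 lay above them all.

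Svs4 was the most abundant member in F3 as well, with 8.65, 9.41 and 6.10 CPM in chlordecone 1, 2 and 3, against 26.0, 43.7 and 6.5 CPM in the controls. Svs5 had 2.89, 3.997 and 2.08 CPM in chlordecone libraries, against 13.0, 16.2 and 2.38 CPM in controls. For both genes control 3 lay inside the chlordecone range, and their log2 fold changes were -1.66 (SE 0.56) and -1.81 (SE 0.60), with edgeR adjusted p of 0.421 and 0.419.

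Svs6 had 0.494, 0.790 and 0.490 CPM in chlordecone 1, 2 and 3, against 2.68, 4.40 and 0.930 CPM in the controls. The groups did not overlap, although control 3 was close to chlordecone 2. Its log2 fold change was -2.17 (SE 0.53; edgeR adjusted p = 0.332, DESeq2 adjusted p = 0.00119), and in the authors' deposited table it was -1.12 with an adjusted p of 0.00243. The deposited F3 log2 fold changes of all members were smaller in size than those of DESeq2 here, unlike the F1 values of Svs2, Svs5 and Pate4. The sizes are therefore not set against each other, and the reason was not tested.

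Ceacam10 had 0.413, 0.767 and 0.236 CPM in chlordecone 1, 2 and 3, against 13.2, 3.42 and 2.42 CPM in the controls. The groups did not overlap, and control 1 was far above the other controls. Its log2 fold change was -3.76 (SE 0.73; edgeR adjusted p = 0.258, DESeq2 adjusted p = 0.00410), with an adjusted p of 0.0703 in the authors' deposited table. Without a filter on low counts edgeR gave it an adjusted p of 0.0157. Without control 1 the log2 fold change was -2.63 (edgeR adjusted p = 0.0898). Of its relatives, Ceacam1 shares 4.60% of the 50-base words of Ceacam10 and had 1166, 974 and 762 CPM in chlordecone 1, 2 and 3, against 724, 624 and 653 CPM in the controls, higher in every chlordecone library (log2 0.54; edgeR adjusted p = 0.419). Ceacam2 shares 0.200% and had 22.8, 14.7 and 15.0 CPM in chlordecone libraries, against 394, 12.7 and 13.4 CPM in controls, with control 1 apart as for Ceacam10. The part of these relatives in the Ceacam10 value was not tested.

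The remaining 6 genes were below 3 CPM in every F3 library. Svs2 had 0.171, 0.720 and 0.104 CPM in chlordecone 1, 2 and 3, against 1.92, 0.792 and 0.149 CPM in the controls. Pate4 had 0.575, 0.918 and 0.811 CPM in chlordecone libraries, against 1.85, 1.91 and 0.382 CPM in controls. The groups overlapped for both, through control 3.

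Svs3a had 0.368, 0.558 and 0.321 CPM in chlordecone 1, 2 and 3, against 1.55, 2.59 and 0.183 CPM in the controls. Svs3b had 0.260, 0.0697 and 0.0943 CPM in chlordecone libraries, against 0.592, 0.962 and 0.0415 CPM in controls. Both were lowest of all in control 3. Svs1 had 2, 4 and 0 counts in chlordecone 1, 2 and 3, against 19, 41 and 0 counts in the controls, and a count of 0 allows up to 0.0292 CPM in chlordecone 3 and 0.0261 CPM in control 3 (3 counts, counting error only). Sva had 8, 8 and 0 counts in chlordecone libraries, against 26, 35 and 11 counts in controls. Svs1 and Sva did not pass the filter on low counts and have no edgeR test in F3.

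**Figure D4:**
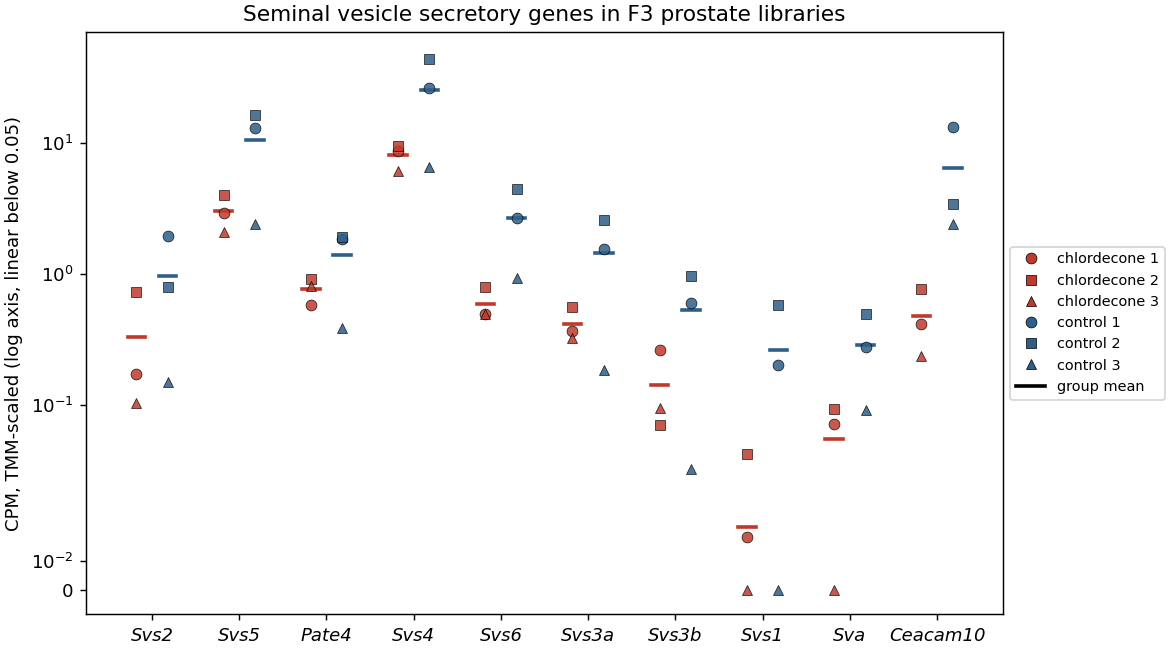
Level of each gene in each F3 library, in TMM-scaled CPM on an axis that is logarithmic above 0.05 and linear below, with chlordecone libraries (red) left of controls (blue) and a bar at the group mean. Control 1 and 2 are above all 3 chlordecone libraries for each of the 10 genes, and control 3 (triangle) is the lowest control throughout.

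Control 1 and 2 exceeded every F3 chlordecone library for all 10 genes, and control 3 did so for 2 of them, Svs6 and Ceacam10. Control 3 was the lowest control for all 10. Of the 8 members that passed the filter, edgeR's quasi-likelihood test called 0 in F3, where it called 0.0596% of genes. At an unadjusted p under 0.05 edgeR had 5, all lower (Svs3a, Svs4, Svs5, Svs6 and Ceacam10), against 5.64% of genes lower and 10.6% in either direction. DESeq2 called 2 of 10, Svs6 and Ceacam10, both lower, against 1.28% of genes (0.692% lower). The authors' deposited table called 1, Svs6, against 0.646% of genes. Non-overlapping groups were seen for 2 of the 8, both lower, against 8.25% of genes lower. The 8 log2 fold changes ran from -3.76 to -0.84, with a median of -1.80 beside -0.01 over 16766 genes. Svs1 and Sva, with few counts, did not pass the filter and are not among them. Svs3b, with 29, 6 and 10 counts in chlordecone 1, 2 and 3, was near the minimum count of 10 there. Leaving out 1 library moved the fold changes while all stayed negative: Svs2 had -0.49 without control 1 and -2.78 without chlordecone 2, and Svs3b had -1.13 without control 2 and -2.65 without chlordecone 1. Without control 2 and without control 3, Svs4 had -1.03 and -2.11, Svs3a -1.07 and -2.32, Svs5 -1.37 and -2.29, Svs6 -1.62 and -2.58, and Pate4 -0.55 and -1.29.

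The difference between generations was tested directly, as the chlordecone difference in F1 minus that in F3. It was 6.09 (SE 1.52) on the log2 scale for Svs2, 3.85 (SE 0.96) for Svs5 and 3.60 (SE 0.89) for Pate4, with edgeR adjusted p of 0.0739, 0.0728 and 0.0714. DESeq2 gave adjusted p of 0.0106, 0.00281 and 0.00221 for these 3 genes. For Svs4 it was 2.33 (SE 1.12; edgeR adjusted p = 0.314) and for Ceacam10 3.68 (SE 1.55; edgeR adjusted p = 0.250), and without F1 chlordecone 2 these were 0.83 and 1.86. Svs2 had 4.52 without F1 chlordecone 3 and 7.32 without F3 chlordecone 2. No member passed in edgeR, which called 0.718% of genes, and 4 had an unadjusted p under 0.05 (Svs2, Svs5, Pate4 and Ceacam10, against 16.9% of genes in either direction and 9.91% higher). DESeq2 called 3, against 6.9% of genes (4.09% higher). Because control and chlordecone F3 libraries held so few of these transcripts, the F3 term rests on counts of 0 to 3090.

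Other genes of the secretion and of the tissues next to the gland were counted in lists. Over all genes tested, edgeR called 0.0281% in F1 and 0.0596% in F3. At an unadjusted p under 0.05 it had 11.5% in F1 (7.93% higher) and 10.6% in F3 (5.64% lower). DESeq2 called 3.89% in F1 (2.99% higher) and 1.28% in F3 (0.692% lower). These shares stand beside every list count below. Of other seminal vesicle products, 3 of 6 were in the F1 table and 0 passed edgeR (1 lower at an unadjusted p under 0.05, and 1 lower by DESeq2). 9530002B09Rik had 8805, 5781 and 8506 CPM in F1 chlordecone 1, 2 and 3, against 18377 and 17264 CPM in the controls (log2 -1.21; edgeR adjusted p = 0.316). It was lower in all 3 F1 chlordecone libraries, unlike any of the 10 members but like Tgm4 and 9530053A07Rik of the prostate lobe list. In F3 it had 9301, 7446 and 9725 CPM in chlordecone libraries, against 8264, 10547 and 8158 CPM in controls. The 10 members there summed to 75.1 CPM or less, so its level did not follow theirs in F3 either. 9530002B09Rik ranked 6 among all genes in every F3 library. Its place among seminal vesicle products rests on the list alone, and the gland it came from here was not tested. Serpine2, a protease inhibitor found in seminal fluid, had 368, 318 and 737 CPM in F1 chlordecone libraries, against 233 and 271 CPM in controls. In F3 Serpine2 had 279, 159 and 219 CPM in chlordecone libraries, against 367, 300 and 285 CPM in controls.

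Of 16 genes for the plug and for handling the semen gel, 7 could be tested in F1 and edgeR called 0, with 1 higher and 1 lower at an unadjusted p under 0.05, and DESeq2 called 1 higher. Tgm4, the transglutaminase that cross-links the plug, had 5331, 2788 and 4290 CPM in F1 chlordecone 1, 2 and 3, against 8349 and 8169 CPM in controls (edgeR adjusted p = 0.405). In F3 it had 77250, 77314 and 65079 CPM in chlordecone libraries, against 74149, 70334 and 64395 CPM in controls, so the enzyme was abundant where its substrates were nearly undetected. Plau, urokinase, had 366, 109 and 803 CPM in F1 chlordecone libraries, against 5.76 and 3.75 CPM in controls (log2 6.48; edgeR adjusted p = 0.0868).

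The Wfdc and Slpi protease inhibitor genes lie on chromosome 2 beside the Svs genes, and 14 of 23 were tested in F1. EdgeR called 0 of them, with 5 higher at an unadjusted p under 0.05, and DESeq2 called 5 higher. Wfdc15b had 187, 34.2 and 252 CPM in F1 chlordecone 1, 2 and 3, against 5.45 and 4.31 CPM in controls. Sdc4, a cell surface proteoglycan, had 39.4, 29.7 and 39.9 CPM in chlordecone libraries, against 36.6 and 30.6 CPM in controls. Slpi had 12.0, 4.09 and 47.9 CPM in chlordecone libraries and 0 counts in both controls, which allows up to 0.174 and 0.160 CPM there.

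Within the Pate family, 8 of 14 genes besides Pate4 were tested in F1, and edgeR called 0, with 3 higher and 1 lower at an unadjusted p under 0.05 (DESeq2 called 2 higher and 1 lower). Pate9 had 4548, 4091 and 5286 CPM in F1 chlordecone libraries, against 10845 and 9917 CPM in controls, the opposite direction to Pate4. Pate14 had 215, 1079 and 4.60 CPM in F1 chlordecone 1, 2 and 3, against 674 and 644 CPM in controls, the library order of Svs6 and Sva. Of 15 Ceacam relatives, 3 were tested in each generation and edgeR and DESeq2 called 0, with 1 lower in F1 and 1 higher and 1 lower in F3 at an unadjusted p under 0.05. In F1 Ceacam1 had 39.7, 30.0 and 40.4 CPM in chlordecone libraries, against 76.5 and 39.8 CPM in controls, and Ceacam2 had 5.11, 9.54 and 7.50 CPM in chlordecone libraries, against 16.2 and 12.0 CPM in controls.

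In F3 edgeR called 0 genes of the lists of other seminal vesicle products, plug and gel genes, Wfdc genes and Pate genes, and DESeq2 likewise 0. At an unadjusted p under 0.05 edgeR had 1 lower of 2 tested other products, 1 higher of 8 plug genes, 1 higher and 1 lower of 9 Wfdc genes and 0 of 2 Pate genes.

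Of 16 genes of the androgen axis and gland regulators, edgeR called 0 in F1, with 2 higher and 7 lower at an unadjusted p under 0.05, and DESeq2 called 3 lower. Gata3, a transcription factor, had 1276, 1705 and 1629 CPM in F1 chlordecone libraries, against 3163 and 3212 CPM in controls (log2 -1.05; edgeR adjusted p = 0.297), and Hoxb13, a homeobox factor of the prostate, had 114, 100.5 and 93.1 CPM in chlordecone libraries, against 168 and 182 CPM in controls. In F3, edgeR called 0 and had 3 higher at an unadjusted p under 0.05, and DESeq2 called 1 higher.

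Markers of other tissues moved with the F1 libraries. The summed level of the vas deferens and epididymis list, with 7 of 8 genes in the table, was 44293, 105 and 13935 CPM in chlordecone 1, 2 and 3, against 25.2 and 26.6 CPM in the controls. Nearly all of it was Akr1b7, at 29064, 33.2 and 8741 CPM in chlordecone 1, 2 and 3, against 15.3 and 14.8 CPM in controls, and Crisp1, at 15224, 68.5 and 5188 CPM in chlordecone libraries, against 8.70 and 10.1 CPM in controls. The other 5 genes, Adam7, Pate1, Defb48, Rnase10 and Lcn5, were below 5 CPM in each library. Pate1 had 3.09, 0 and 4.70 CPM and Lcn5 1.27, 0 and 0.0921 CPM in chlordecone 1, 2 and 3, while Adam7 (0.436, 1.64 and 0.0460 CPM) and Rnase10 (0.277, 1.20 and 0.230 CPM) were highest in chlordecone 2. Pate1 and Rnase10 were at 0 in control 1, and Lcn5, Adam7 and Defb48 in control 2. The 2 chlordecone libraries with high Akr1b7 and Crisp1 are those in which Svs2, Svs5 and Pate4 were higher and the other 7 members lower. In chlordecone 2 the sum of that list was lowest of the chlordecone libraries, but above both controls (105 against 25.2 and 26.6 CPM). In that library Svs2 was 6.68 times, Svs5 2.60 times and Pate4 4.82 times the control mean.

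The prostate lobe list summed to 115707, 74505 and 117748 CPM in F1 chlordecone 1, 2 and 3, against 162898 and 153486 CPM in the controls, so prostate markers were present in every library. Its most abundant genes were Pbsn, at 79703, 37323 and 84709 CPM in chlordecone libraries, against 86408 and 71480 CPM in controls, and 9530053A07Rik, at 28019, 22184 and 28393 CPM in chlordecone libraries, against 60632 and 67188 CPM in controls. The list also held Spinkl, at 2181, 11897 and 13.8 CPM in chlordecone libraries, against 6788 and 5879 CPM in controls. Spinkl had the library order of Svs6 and Sva, so the list sums held part of that pattern too. Smooth muscle genes summed to 11912, 4716 and 7510 CPM in chlordecone libraries, against 4099 and 4014 CPM in controls, led by Tagln (5228, 1565 and 3630 CPM in chlordecone libraries, against 2076 and 1995 CPM in controls) and Cnn1 (2085, 835 and 1248 CPM, against 661 and 672 CPM in controls). Urothelial genes summed to 1384, 1725 and 1719 CPM in chlordecone libraries, against 3192 and 3233 CPM in controls, most of it Gata3, while Upk1b had 20.4, 9.27 and 23.2 CPM in chlordecone libraries, against 23.4 and 18.1 CPM in controls. The urothelial markers Psca (34.6, 5.34 and 15.7 CPM in chlordecone libraries, against 0.314 and 0.422 CPM in controls), Upk3a (16.0, 0.709 and 6.997 CPM, against 0.681 and 0.328 CPM in controls) and Upk1a (13.03, 2.51 and 13.2 CPM, against 1.73 and 0.656 CPM in controls) were above both controls in all 3 chlordecone libraries, with edgeR adjusted p of 0.127, 0.297 and 0.250. Upk3b (7.36, 0.327 and 23.3 CPM, against 0.210 and 0.0937 CPM in controls) and Krt20 (5.11, 0.709 and 1.75 CPM, against 0.314 and 0.0469 CPM in controls) were likewise above both controls. Upk2 had 12.3, 1.04 and 5.02 CPM in chlordecone 1, 2 and 3, against 2.36 and 1.78 CPM in controls, so it was below both controls in chlordecone 2. Like the vas deferens list, Psca, Upk1a, Upk2, Upk3a, Upk3b and Krt20 were higher in chlordecone 1 and 3 than in chlordecone 2.

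Luminal epithelial genes summed to 1403, 499 and 958 CPM in F1 chlordecone 1, 2 and 3, against 784 and 872 CPM in controls, led by Krt8 (407, 89.3 and 321 CPM in chlordecone libraries, against 123 and 154 CPM in controls) and Krt18 (242, 133 and 254 CPM, against 233 and 224 CPM in controls). Basal epithelial genes summed to 213, 309 and 193 CPM in chlordecone libraries, against 205 and 199 CPM in controls, led by Dst (154, 220.1 and 130 CPM in chlordecone libraries, against 176 and 158 CPM in controls) and Krt15 (31.0, 65.3 and 35.6 CPM, against 20.7 and 30.3 CPM in controls). Leukocyte genes summed to 14.5, 14.7 and 41.0 CPM in chlordecone libraries, against 12.6 and 14.1 CPM in controls, led by Ptprc (4.55, 6.71 and 11.3 CPM in chlordecone libraries, against 5.45 and 3.47 CPM in controls) and Adgre1 (4.24, 3.11 and 13.1 CPM, against 5.76 and 4.87 CPM in controls). EdgeR called 0 genes of these 7 F1 lists. At an unadjusted p under 0.05 edgeR had 2 higher of 5 tested vas deferens genes, 7 lower of 10 prostate lobe genes, 6 higher of 8 smooth muscle genes, 5 higher and 1 lower of 8 urothelial genes, 0 of 5 luminal genes, 2 higher of 5 basal genes and 1 higher of 5 leukocyte genes. DESeq2 called 2 higher, 3 lower, 3 higher, 4 higher and 1 lower, 0, 2 higher and 1 higher in the same order of lists. Over all F1 genes the shares were 11.5% at an unadjusted p under 0.05 in edgeR (7.93% higher) and 3.89% by DESeq2 (2.99% higher). The part of these tissues in the values of the members was not tested.

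In F3 the vas deferens and epididymis list summed to 0.350, 0.325 and 0.321 CPM in chlordecone 1, 2 and 3, against 0.127, 0.113 and 0.133 CPM in controls. Spag11a and Adam7 were at 0 in all 3 chlordecone libraries and in control 1 and 3, and at 0.0141 CPM in control 2, so those zeros do not part the groups. The prostate lobe list summed to 214761 to 264884 CPM in chlordecone libraries, against 213788 to 268138 CPM in controls. Smooth muscle genes summed to 1613, 2510 and 2404 CPM in chlordecone libraries, against 1270, 4256 and 3588 CPM in controls, so control 1, with high member levels, had the lowest smooth muscle sum and control 2, also with high member levels, the highest. The only gene of these lists called by edgeR was Upk1a, a urothelial plaque protein, at 14.6, 20.2 and 15.0 CPM in chlordecone libraries, against 3.52, 2.23 and 3.24 CPM in controls (log2 2.46; edgeR adjusted p = 0.0102), and DESeq2 called it and Upk1b.

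**Figure D5:**
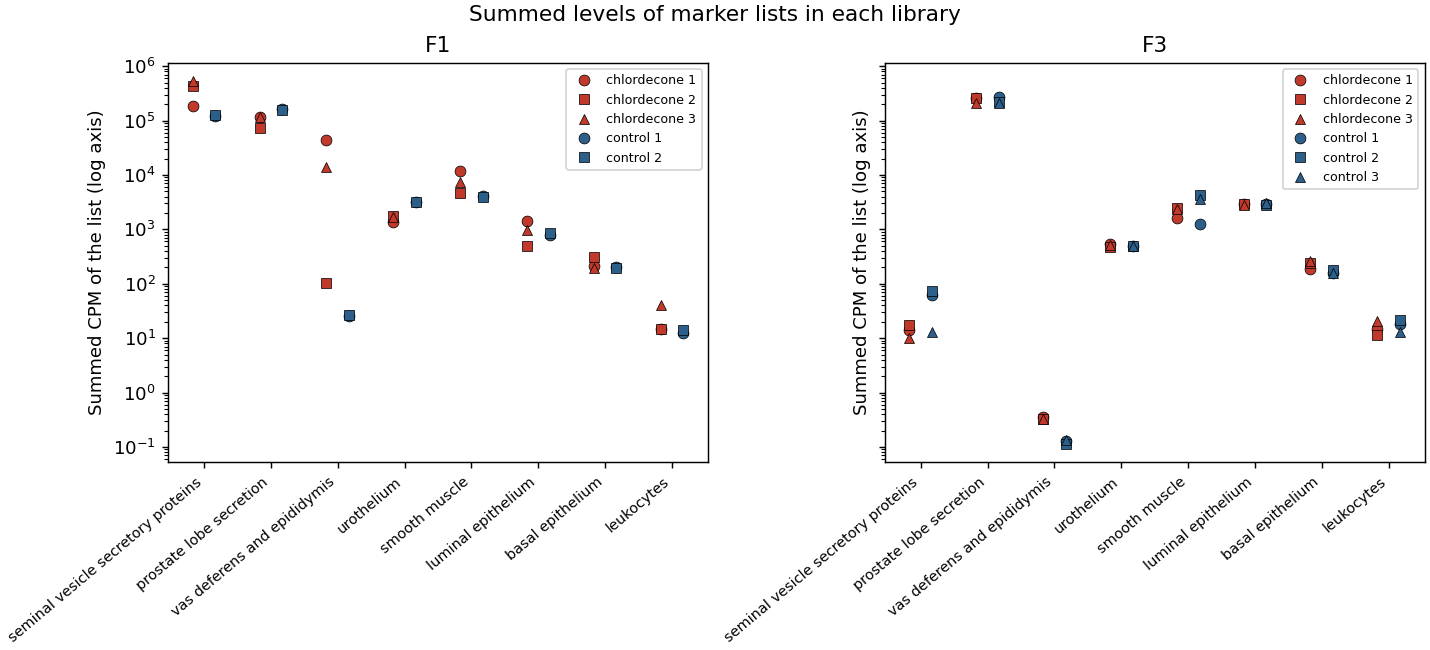
Summed CPM of each marker list in each library, on a log axis, for F1 (left) and F3 (right), with chlordecone libraries in red left of controls in blue. The vas deferens and epididymis sum is 44293 and 13935 CPM in F1 chlordecone 1 and 3 and 105 CPM in chlordecone 2, and the seminal vesicle sum is 75.1 CPM or less in every F3 library while the prostate lobe sum is 213788 CPM or more.

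The genes whose F1 profile lay nearest to the mean profile of the 10 members, by root mean square difference of centred log2(CPM + 1) over 5 libraries, were Orm3 (0.44), Uox (0.45), Dnase2b (0.49), Zfp398 (0.53) and Erbb4 (0.68). All 5 had their highest value in chlordecone 2 and their lowest in chlordecone 3, and levels of 20.7 CPM or less. In F3, over 6 libraries and the 5 members with a mean of at least 1 CPM, the nearest were Ifi27 (0.34), Ang (0.34), Cd52 (0.34), Spon2 (0.36) and Mdm1 (0.40). The mean profile averages genes that parted in F1, where Svs2, the farthest member, differed from it by 3.18 and Svs3b, the nearest, by 0.66.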

How the data were processed

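The submitters' processing notes name DESeq2 1.6.3, HTSeq 0.6.1, TopHat2 2.0.14, bcl2fastq 2.17.1.14, Bowtie2 2.1.0 and the build mm10. The authors deposited 1 table per generation with raw read counts per gene, beside p-values (raw and adjusted) and log2 fold changes of their own comparison. The F1 table held 19091 genes with a lowest total of 20 counts, and that of F3 held 26023 genes with a lowest total of 1. Gene positions come from GENCODE M21, since positions in the F1 table differed from it.

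Within each generation counts went into edgeR 4.0.16 under R 4.3.3 (filterByExpr, minimum count 10 and minimum total 15, TMM scaling, two-sided quasi-likelihood F test, Benjamini-Hochberg adjustment over all genes, threshold 0.05). The generations were compared in 1 fit over the 16980 genes tested of both tables. DESeq2 1.42.0 was an alternative, as were size factors, other filters, members left out of the totals, 1 fit of all libraries, a block for the sample number, and omission of 1 library at a time. Values in CPM are counts scaled with TMM factors, and floors cover counting error only. Columns headed K were read as chlordecone.

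The 10 members, the marker lists and the rule for named genes were chosen with earlier results of these data known. That rule names all members, the 5 nearest profiles per generation, and from each list the genes past the threshold or else the 2 with the highest mean. From the lists, values of these are given in F1 for every list, and in F3 for some lists only. Pate2, Slpi, 4930563H07Rik and the smaller vas deferens genes were named after their values were seen where they fall outside that rule. So were Psca, Upk1a, Upk2, Upk3a, Upk3b and Krt20 in F1. 1 regulator of the lists is not reported here.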

Additional observations from a re-analysis of the deposited data

How the results depend on the processing

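In F1 the number of members called (main 0) was 3 with DESeq2, 1 with the replicate block (Svs2, edgeR adjusted p = 0.0375) and 2 with 1 fit of all libraries (Svs2 and Pate4). Over all genes these fits called 700 (3.89%), 322 and 930, against 5 (0.0281%) in the main fit. The number of members ranged from 0 to 4 on leaving out 1 library, the 4 coming without chlordecone 2, where Svs2 (log2 5.03, edgeR adjusted p = 0.00756), Svs5 (2.35, 0.0139), Pate4 (3.03, 0.00975) and Svs4 (-0.71, 0.0366) passed. That fit called 2604 of all genes (15%). In F3 the number of members was 1 with no filter (Ceacam10) and 2 with DESeq2, and 0 to 0 on leaving out 1 library. Over all F3 genes, 38 passed with no filter and 230 (1.28%) with DESeq2. For the interaction the number of members was 3 with DESeq2, which called 6.9% of all genes. On leaving out 1 library it was 0 to 3, with 3 without F1 chlordecone 2 and 2 without F3 control 3 (Svs5 and Pate4). The calls over all genes on these omissions are given below as a range only. Svs2, Svs5 and Pate4 kept a positive F1 log2 fold change in every fit run.

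Directions changed in F1 for Svs3a with total counts (-0.11), and for Svs1 (0.016) and Ceacam10 (0.15) with the block. Leaving out 1 library, the F1 log2 fold change ranged from -1.80 to 0.50 for Ceacam10, -2.34 to 0.20 for Sva, -1.98 to 0.33 for Svs1, -1.77 to 0.61 for Svs3a, -2.03 to 0.084 for Svs3b, -0.71 to 1.13 for Svs4 and -2.43 to 0.23 for Svs6. The interaction ranged from -0.17 to 2.48 for Sva, -0.13 to 2.34 for Svs3a, -0.39 to 2.10 for Svs3b and -0.38 to 2.36 for Svs6. In F3 the fold changes stayed negative, with ranges of -2.78 to -0.49 for Svs2, -4.29 to -2.63 for Ceacam10 and -2.11 to -1.03 for Svs4. The interaction ranged from 0.83 to 2.79 for Svs4, 1.86 to 4.23 for Ceacam10 and 4.52 to 7.32 for Svs2. The F1 member median ranged from -1.79 to 0.55, the lowest without chlordecone 2.

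All genes called in F1 (main 5) were 42 with total counts, 21 with no filter, 700 with DESeq2, 322 with the block, 930 with 1 fit of all libraries and 0 to 2604 on leaving out 1 library. In F3 (main 10) they were 38 with no filter, 230 with DESeq2, 2 with 1 fit of all libraries and 7 to 41. For the interaction (main 122) they were 188 with a mean of at least 1 CPM, 1150 with DESeq2, 49 with the block and 27 to 2320. With a pseudocount of 0.1, 1 of the 5 nearest F1 profiles was shared. The cause of these changes was not tested. Deviations from the group means, over all genes tested, had correlations of 0.060 and 0.066 between same-numbered samples in F1. In F3 these were 0.207, -0.077 and -0.072, while differently numbered samples ranged from -0.312 to 0.346. With 2 F1 controls the deviations of the controls mirror each other. Such correlations cannot show whether the numbers pair samples by litter, dosing or processing, and the labels do not say.

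With 2 F1 controls and chlordecone libraries that part from each other, the F1 spread limits the tests, and F3 member counts of 0 to 3090 limit the lowest genes.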

Other observations

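Spinkl and Spink1, named here after their values were seen, had the F1 library order of Svs6 and Sva. Spinkl, a Kazal-type inhibitor listed here among prostate products, had 2181, 11897 and 13.8 CPM in chlordecone 1, 2 and 3, against 6788 and 5879 CPM in controls. Spink1, a trypsin inhibitor secreted by the seminal vesicle, had 23.6, 140 and 0.276 CPM in chlordecone 1, 2 and 3, against 52.1 and 41.3 CPM in controls. In F3, Spinkl was at 0 in 2 of 3 libraries of each group and at 0.0232 CPM or less in the others. Pbsn of the same list had 17322.5 CPM or more in every F3 library, so Spinkl did not follow it there. The gland that Spinkl transcripts came from was not tested.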
